A study of Mus musculus with 8 samples.

Results

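Integrins and laminins were represented on the array by 35 genes, out of 22180 genes with a probe set of their own. They were chosen by gene symbol alone, as the genes named Itga or Itgb with a subunit designation and those named Lama, Lamb or Lamc with a chain number, among probe sets annotated with a single gene. Where a gene had several such probe sets, the brightest by its mean over the 8 arrays was used. The 35 genes were 17 integrin alpha and 8 integrin beta subunits, and 5 alpha, 3 beta and 2 gamma chains of laminin. A gene was tested if it lay above the median of all deposited values, 4.24 on the log2 scale, on at least 2 arrays. This left 25 of the 35 (17 integrins and 8 laminins) and 13597 genes of the series.

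The samples were wild type C57BL/6J mouse cells in 4 groups of 2 Affymetrix Mouse Gene 2.1 arrays each. FGF-ESC are pluripotent lines kept with FGF2 and 20% KSR, a serum replacement, in KODMEM on MEF, the mouse embryonic fibroblasts that serve as a feeder layer. EpiSC, lines of the primed kind, were grown in the same medium, also on MEF. ESC, lines of the naive kind, were grown in DMEM with 15% FCS, LIF and 2i, a pair of kinase inhibitors, without MEF. ICM is uncultured inner cell mass freed from blastocysts by immunosurgery, and the labels give embryonic day 3.5 as the origin of all 4 groups. RNA of the 3 kinds of cultured cells was extracted with one column kit and that of the ICM with another, so kit and culture cannot be told apart in comparisons with ICM. Medium, feeders and cell type differed together between ESC and the other lines. Whether both arrays of a group hold separate lines, cultures or embryo pools is not in the labels, so the p-values cover the spread between these arrays alone, which may be technical.

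Integrins are cell surface receptors made of an alpha and a beta subunit. They bind matrix proteins outside the cell and, through talin and kindlin, the actin cytoskeleton inside it. Laminins are cross-shaped secreted proteins made of an alpha, a beta and a gamma chain, and they form the sheet on which basement membranes are built. In the blastocyst a laminin-rich basement membrane comes to lie between epiblast and primitive endoderm, and Itga6 with Itgb1 encodes a main laminin receptor of pluripotent cells.

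Markers of pluripotent states and of other cell types were read alongside. The core factors Nanog and Sox2 were at 7.74 or more on every array, the naive factor Klf4 at 7.11 or more in FGF-ESC, ESC and ICM and at most 4.82 in EpiSC, and the primed growth factor Fgf5 at 5.72 and 6.07 in EpiSC against at most 3.43 elsewhere. The mean over 6 core markers was 7.47 and 7.54 in EpiSC and 7.96 to 8.44 on the other arrays. Not every core marker was that high: Dppa4 was at 4.37 and 4.58 in EpiSC against 7.67 or more elsewhere. Pou5f1 was at 5.93 to 6.66 on all arrays. The mean over 11 naive markers was 4.64 and 5.11 in EpiSC and 7.14 to 7.85 on the other arrays. Not every naive marker was high in ICM. Nr0b1 was at 4.23 and 3.63 in ICM and 3.51 and 4.40 in EpiSC, against 8.09 to 8.61 in FGF-ESC and ESC. Prdm14 was at 4.34 and 4.16 in ICM. Esrrb was at 5.48 and 5.87 in ICM and 5.38 and 5.43 in EpiSC. The mean over 11 primed markers was 7.08 and 7.27 in EpiSC, 5.66 and 5.61 in FGF-ESC and 4.87 to 5.13 on the ESC and ICM arrays. Not every primed marker set EpiSC apart: Sox4 was at 8.09 and 7.21 in FGF-ESC and 7.96 and 7.65 in EpiSC, and Otx2 at 6.12 and 6.09 in ICM and 5.76 and 6.17 in EpiSC. The mean over 25 fibroblast markers was 8.196 and 6.93 for FGF-ESC, 4.26 and 4.3001 for ESC, 4.89 and 5.12 in EpiSC, and 4.40 and 4.61 for ICM, and 23, 10, 18 and 13 of the 25 exceeded that median on both arrays of the respective group. Both FGF-ESC arrays thus lay above all others on this mean, replicate 1 the furthest, and called differences with FGF-ESC are also given without replicate 1. Those values still rest on replicate 2, whose fibroblast mean of 6.93 also exceeded the 4.26 to 5.12 of the other groups. In ICM the primitive endoderm factor Gata6 was at 7.996 and 8.04, against at most 4.51 in the lines. The mean over 13 primitive endoderm markers there was 5.79 and 5.86 (4.19 to 4.98 elsewhere), and the mean over 12 trophectoderm markers 5.78 and 5.79 (4.65 to 4.89 elsewhere). Not every such marker was highest in ICM. Foxa2 was at 4.09 and 4.37 in ICM and 5.27 and 5.71 in EpiSC. Serpinh1 was at 5.88 and 6.37 in ICM, 7.01 and 7.32 in EpiSC and 8.20 and 6.89 in FGF-ESC. Dab2 was at 7.18 and 6.24 in ICM and 7.57 and 6.30 in FGF-ESC. Gata4 was at 4.67 to 5.24 on all arrays. The trophectoderm marker Tead4 was at 7.21 and 7.64 in ICM and 7.90 and 7.84 for ESC. In bulk RNA of this kind, fewer cells of a type and less RNA per cell cannot be told apart.

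Of the 25 tested genes, 13 differed in at least 1 of the 6 comparisons between groups (7 integrins and 6 laminins), against 25.1% of all tested genes. A difference was called at an adjusted p below 0.05 in limma's moderated test (Benjamini-Hochberg over all 13597 genes) and a log2 difference of at least 1. The 25 genes include some that were tested only because 1 group was high, so these counts describe the list and are not set against chance. Shares of all tested genes are given for these calls only. Counts at an unadjusted p, or under another setting, have no such share and describe the lists alone. Comparisons that share a group share its arrays.

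Between FGF-ESC and ESC, 3 of the 25 genes were higher in FGF-ESC (Itga5, Lama4 and Lamb1) and 1 was lower (Lama1), where 5.27% of all tested genes were higher and 0.934% lower. The median difference was 0.09 over the 25 genes and -0.06 over all tested genes. Between FGF-ESC and EpiSC, 4 were higher in FGF-ESC (Itga5, Itgb3, Itgb5 and Lama4) and 1 was lower (Itga3), beside 5.26% and 2.02% of all tested genes, with medians of 0.22 and -0.04. Between FGF-ESC and ICM, 3 were higher (Itgb1, Lama4 and Lamb2) and 2 lower (Itgae and Lama5), beside 9.57% and 5.22%, with medians of -0.16 and -0.02.

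Between ESC and EpiSC, 2 of the 25 genes were higher in ESC (Lama1 and Lamc1) and 2 lower (Itga3 and Lamb1), where 3.5% of all tested genes were higher and 3.86% lower, with medians of 0.13 and 0.01. Between ESC and ICM, 3 were higher in ESC (Lama1, Lamb2 and Lamc1) and 2 lower (Lama5 and Lamb1), beside 5.82% and 5.57%, with medians of -0.15 and 0.02. All 5 of these were laminins, and 0 of the 17 integrins passed there, although Itga1, Itgb5 and Itgb7 had an adjusted p of 0.0226, 0.0305 and 0.0113 with differences under the fold minimum. At an unadjusted limma p below 0.05, 0 integrins were higher and 7 lower in ESC than in ICM. The share of all tested genes at that p was not computed. Between EpiSC and ICM, 1 was higher in EpiSC (Itgb1) and 2 lower (Itgb5 and Itgb7), all integrins (0 of 8 laminins passed, and 1 was higher and 4 lower at an unadjusted limma p below 0.05), beside 8.48% and 6.8%, with medians of -0.24 and 0.01. The arrays of the 2 groups did not overlap in any of the 26 differences called. With 2 arrays per group the thresholds leave little room for overlap, and many differences that were not called had none either. The share without overlap over all tested genes was not computed. In 6 of the 26, the lower group's mean lay under the median of all values, near background. The size of such a difference depends on that floor.

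**Figure D1:**
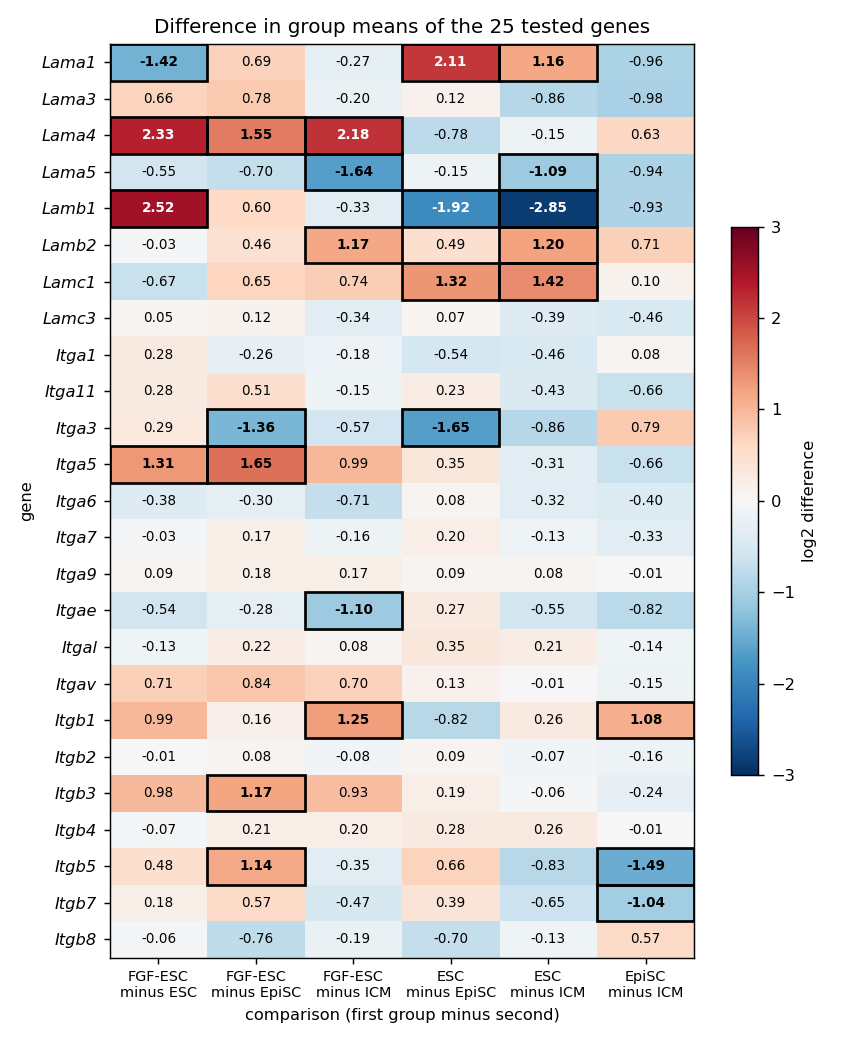
Log2 difference between group means for the 25 tested integrin and laminin genes (rows) in the 6 comparisons (columns, first group minus second); red is higher and blue lower in the first group. The 26 framed cells passed the test, 15 of them in the laminin rows, and the integrin rows hold 0 framed cells between ESC and ICM.

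Among laminin alpha chains, which carry most of the sites that integrins bind, Lama1, Lama4 and Lama5 followed 3 different orders across the groups. Lama1 (probe set 17339223) encodes the alpha chain of the first basement membranes of the embryo. On replicates 1 and 2 it was at 6.35 and 6.35 for ESC, 5.18 and 5.20 in ICM, 4.80 and 5.05 in FGF-ESC and 4.36 and 4.11 in EpiSC. Both ESC arrays lay above all others, and both EpiSC arrays below all others. ESC exceeded FGF-ESC (a difference of -1.42 ± 0.14 for FGF-ESC minus ESC, SE, n = 2 arrays per group, limma adjusted p = 0.000654), EpiSC (2.11 ± 0.14, adjusted p = 4.18e-05) and ICM (1.16 ± 0.14, adjusted p = 0.000463). These 3 differences passed under every alternative tried, and the first was -1.30 without FGF-ESC replicate 1. FGF-ESC and ICM, neighbours in the order, differed by -0.27 (95% interval -0.58 to 0.05), which did not pass. FGF-ESC minus EpiSC was 0.69 and EpiSC minus ICM -0.96, under the fold minimum with adjusted p-values of 0.0104 and 0.000886, and the latter passed without EpiSC replicate 1 (-1.08) and after quantile normalization (-1.0002).

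Lama5 (probe set 17395512), the alpha chain of many epithelial basement membranes and of the laminin on which pluripotent cells are commonly cultured, had its highest values in ICM. It was at 7.10 and 7.46 in ICM, 6.28 and 6.41 in EpiSC, 6.27 and 6.11 for ESC and 5.57 and 5.71 in FGF-ESC. The ICM arrays lay above and the FGF-ESC arrays below those of the other groups, and EpiSC and ESC lay close together (ESC minus EpiSC -0.15, 95% interval -0.50 to 0.19). FGF-ESC was lower than ICM by a difference of -1.64 ± 0.15 (adjusted p = 0.000106; -1.57 without FGF-ESC replicate 1) and ESC by -1.09 ± 0.15 (adjusted p = 0.000955). The latter was -0.91, short of the fold minimum, without ICM replicate 2. EpiSC minus ICM, at -0.94, was short of the minimum with all arrays and past it without EpiSC replicate 2 (-1.004) or ICM replicate 1 (-1.12). Primitive endoderm and trophectoderm marker means were also highest in ICM, as given above, and their part in the Lama5 difference was not tested.

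Lama4 (probe set 17232593), the alpha chain of vessel wall and other mesenchymal basement membranes, was highest in FGF-ESC. It was at 6.88 and 5.43 there, 4.59 and 4.62 in EpiSC, 3.98 and 3.98 in ICM and 3.87 and 3.78 for ESC, so that both FGF-ESC arrays lay above all others while ESC and ICM lay near background. The difference was 2.33 ± 0.37 against ESC (adjusted p = 0.00631), 1.55 ± 0.37 against EpiSC (adjusted p = 0.0224) and 2.18 ± 0.37 against ICM (adjusted p = 0.00251). Its arrays differed by 1.45 within FGF-ESC, with replicate 1 higher, as was the fibroblast mean (8.196 and 6.93). Without FGF-ESC replicate 1 the differences were 1.61 against ESC and 1.45 against ICM, which passed, and 0.83 against EpiSC, which was under the fold minimum. The difference from ESC missed the p threshold without ESC replicate 1 or ESC replicate 2 and in a fit of these groups alone (adjusted p from 2.28e-06 to 0.0619 over the alternatives), and that from EpiSC without EpiSC replicate 1 or EpiSC replicate 2 and in a fit of these groups alone (1.2e-05 to 0.118). The part of fibroblast RNA in these values was not tested.

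The other alpha chains gave smaller differences. Lama3 (probe set 17348492), the alpha chain of epithelial anchoring laminin, was at 5.75 and 5.64 in ICM, 5.40 and 5.58 in FGF-ESC, 4.82 and 4.84 for ESC and 4.76 and 4.66 in EpiSC. ICM and FGF-ESC thus lay above ESC and EpiSC without overlap, but no difference reached the fold minimum. The nearest, EpiSC minus ICM, was -0.98 ± 0.12 (adjusted p = 0.000371) and passed without EpiSC replicate 1 (-1.03), without ICM replicate 2 (-1.04) and after quantile normalization (-1.03). Lama2, the alpha chain of muscle basement membrane, exceeded the median of all values on 1 array, FGF-ESC replicate 1 (4.51, against 3.63 to 3.92 on the others), and was not tested.

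Of the laminin beta chains, Lamb1 and Lamb2 set different groups apart. Lamb1 (probe set 17274775), the beta chain shared by the embryonic laminins with Lama1 or Lama5, had the widest span of group means among the 25 genes, 2.85. It was at 5.35 and 5.36 for ESC, 7.18 and 7.37 in EpiSC, 8.40 and 7.36 in FGF-ESC and 8.13 and 8.28 in ICM. Both ESC arrays lay far below every other array, while FGF-ESC overlapped EpiSC and ICM, and both ICM arrays lay above both EpiSC arrays. The difference was 2.52 ± 0.28 for FGF-ESC minus ESC (adjusted p = 0.00133), -1.92 ± 0.28 for ESC minus EpiSC (adjusted p = 0.00218) and -2.85 ± 0.28 for ESC minus ICM (adjusted p = 0.000185). All 3 passed under every alternative tried, and the first was 2.005 without FGF-ESC replicate 1. FGF-ESC minus EpiSC was 0.60 (95% interval -0.05 to 1.25). It passed without FGF-ESC replicate 2 (1.12) and did not pass without FGF-ESC replicate 1. EpiSC minus ICM was -0.93 (-1.58 to -0.28, adjusted p = 0.0321), and FGF-ESC minus ICM was -0.33 (-0.98 to 0.32).

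The level of Lamb1 in ESC thus went against that of Lama1 and Lamc1, the chains it joins in a laminin of early embryos. Lamc1 (probe set 17228164), the gamma chain of most laminins, was at 9.19 and 9.07 for ESC, 8.50 and 8.41 in FGF-ESC, 7.74 and 7.88 in EpiSC, and 7.59 and 7.84 for ICM. Both ESC arrays lay above the rest, followed without overlap by FGF-ESC, and EpiSC and ICM overlapped (0.10, 95% interval -0.21 to 0.40). ESC exceeded EpiSC by 1.32 ± 0.13 (adjusted p = 0.000321) and ICM by 1.42 ± 0.13 (adjusted p = 0.000137), under every alternative tried. FGF-ESC minus ESC was -0.67, FGF-ESC minus EpiSC 0.65 and FGF-ESC minus ICM 0.74, all under the fold minimum with adjusted p-values of 0.0138, 0.0115 and 0.00307. In ESC, then, 2 chains of the trimer were at the top of their range and 1 at the bottom, while in ICM Lamb1 was near the top of its range and Lamc1 at the bottom, where it overlapped EpiSC.

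Lamb2 (probe set 17521727), the beta chain of mature basement membranes such as that of the kidney glomerulus, was at 5.49 and 5.35 in FGF-ESC, 5.33 and 5.58 for ESC, 4.81 and 5.12 in EpiSC, and 4.02 and 4.49 for ICM. Both ICM arrays lay below all cultured arrays, and FGF-ESC and ESC overlapped (-0.03, 95% interval -0.46 to 0.40). The difference from ICM was 1.17 ± 0.19 in FGF-ESC (adjusted p = 0.00178; 1.10 without FGF-ESC replicate 1) and 1.20 ± 0.19 in ESC (adjusted p = 0.00181), and both were just under the fold minimum without ICM replicate 1 (0.94 and 0.97). EpiSC minus ICM was 0.71 (adjusted p = 0.0176). Lamb3, the beta chain of epithelial anchoring laminin, was between 3.66 and 4.07 and was not tested. Lamc3, a gamma chain, was between 3.47 and 4.32, was tested only through the ICM arrays, and passed in 0 comparisons (0 of 6 at an unadjusted limma p below 0.05).

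**Figure D2:**
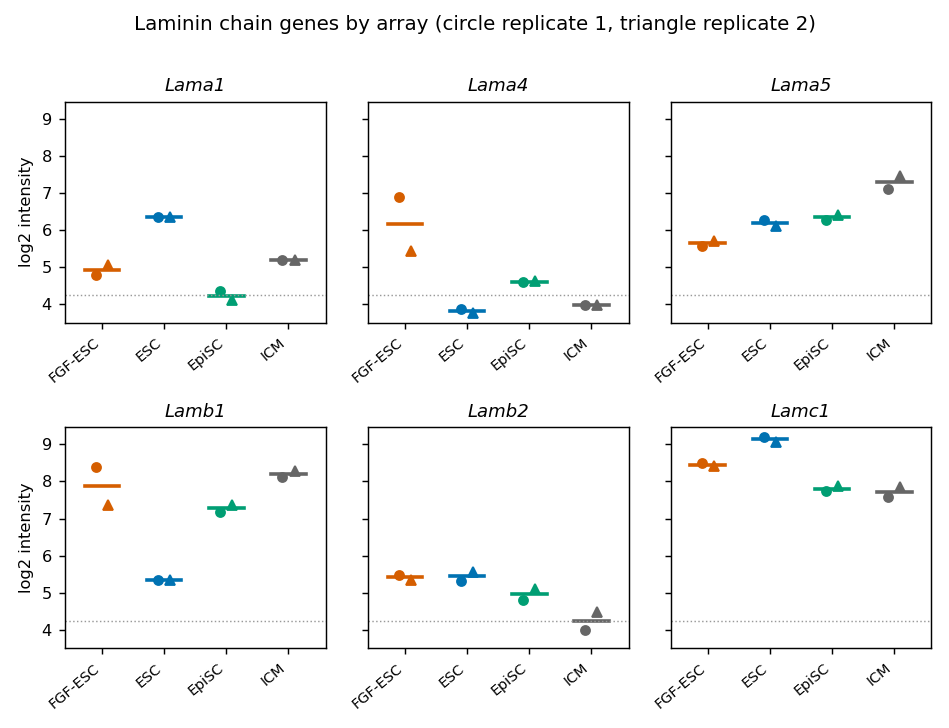
Log2 intensity of the 6 laminin genes that passed in at least 1 comparison, by group, with a circle for replicate 1, a triangle for replicate 2 and a bar for the mean of the 2 arrays; the dotted line is the median of all values, 4.24. ESC is highest for Lama1 and Lamc1 and lowest for Lamb1, ICM is highest for Lama5, and the FGF-ESC arrays lie apart from each other for Lama4 and Lamb1.

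Among integrin alpha subunits, Itga5 was high in FGF-ESC and Itga3 in EpiSC. Itga5 (probe set 17322369), which with Itgb1 forms the classical fibronectin receptor, was at 7.40 and 6.58 in FGF-ESC, 5.84 and 6.16 in ICM, 5.53 and 5.84 for ESC and 5.13 and 5.55 in EpiSC. Both FGF-ESC arrays lay above all others, and ICM, ESC and EpiSC followed with means close to one another. The difference was 1.31 ± 0.27 against ESC (adjusted p = 0.0179), 1.65 ± 0.27 against EpiSC (adjusted p = 0.00458) and 0.99 ± 0.27 against ICM (adjusted p = 0.0228), the last just under the fold minimum and past it with the arrays centred on their medians (1.03) or without FGF-ESC replicate 2 (1.40) or ICM replicate 2 (1.16). Without FGF-ESC replicate 1, the array with the higher fibroblast mean, the difference was 0.90 against ESC and 1.24 against EpiSC, and only the latter passed. The difference from ICM did not pass there. The difference from ESC also missed the p threshold without ESC replicate 1 or ESC replicate 2 and in a fit of these groups alone (adjusted p from 0.00108 to 0.144 over the alternatives).

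The 250 bases before the transcription start are shown for the 3 called integrin genes whose RefSeq entry (GRCm38.p6) begins at the outermost annotated start: Itga5 and Itgb1, the partners of the fibronectin receptor, and Itgb5, which differed from Itga5 in being high in ICM. Of the 35 genes, 22 had an entry in that promoter table, among them 8 of the 13 called. Capitals mark matches, on either strand, to the motifs searched: the GC box (GGGCGG), the AP-1 motif (TGACTCA), the TATA box (TATAAA), the CCAAT box, the GATA motif (AGATAA) and the TEAD motif (GGAATG).
Itga5 (chr15:103366792-103367041, minus strand): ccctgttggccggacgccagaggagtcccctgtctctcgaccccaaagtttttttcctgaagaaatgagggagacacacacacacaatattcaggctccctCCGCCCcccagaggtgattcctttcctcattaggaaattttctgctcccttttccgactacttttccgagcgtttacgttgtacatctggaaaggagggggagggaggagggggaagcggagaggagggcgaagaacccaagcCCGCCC
Itgb1 (chr8:128685404-128685653, plus strand): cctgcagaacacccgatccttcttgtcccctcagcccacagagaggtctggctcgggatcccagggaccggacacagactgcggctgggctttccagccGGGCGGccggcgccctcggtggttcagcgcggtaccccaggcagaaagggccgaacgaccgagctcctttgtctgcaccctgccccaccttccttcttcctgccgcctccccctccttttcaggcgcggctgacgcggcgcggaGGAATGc
Itgb5 (chr16:33829415-33829664, plus strand): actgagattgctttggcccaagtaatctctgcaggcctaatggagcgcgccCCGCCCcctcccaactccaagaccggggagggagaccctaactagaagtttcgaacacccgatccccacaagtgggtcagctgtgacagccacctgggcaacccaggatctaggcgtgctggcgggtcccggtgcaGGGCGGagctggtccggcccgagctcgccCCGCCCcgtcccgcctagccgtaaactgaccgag
The GC box occurred 2 times before Itga5, 1 time before Itgb1 and 3 times before Itgb5, and in 32.7% of all 32851 windows of this length. The TEAD motif occurred 1 time, before Itgb1, and in 12.6% of all windows. The AP-1, TATA, CCAAT and GATA motifs, found in 4.46%, 12.4%, 33.8% and 9.99% of all windows, had 0 matches in the 3 windows. A match is a description of the letters and no evidence of binding.

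Itga3 (probe set 17268137), a laminin receptor subunit of epithelial cells, was at 5.39 and 6.22 in EpiSC, 4.73 and 5.30 in ICM, 4.66 and 4.23 in FGF-ESC and 4.303 and 4.0003 in ESC. Both EpiSC arrays lay above all others, and FGF-ESC and ESC, which overlapped, lay near background. The difference was -1.36 ± 0.30 for FGF-ESC minus EpiSC (adjusted p = 0.0158) and -1.65 ± 0.30 for ESC minus EpiSC (adjusted p = 0.00618). Without FGF-ESC replicate 1 the former was -1.57, which passed. Without EpiSC replicate 2 it was -0.95, under the fold minimum, and it missed the p threshold in a fit of these groups alone (adjusted p from 0.0132 to 0.0964 over the alternatives). The difference from ESC missed the p threshold without ESC replicate 2 (0.0023 to 0.0641). EpiSC minus ICM was 0.79 (95% interval 0.10 to 1.47, adjusted p = 0.0705) and passed without EpiSC replicate 1 (1.20).

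Itgae (probe set 17252574), which pairs with Itgb7 in the E-cadherin receptor of epithelial lymphocytes, was at 5.20 and 4.75 in ICM, 4.18 and 4.65 for ESC, 4.13 and 4.18 in EpiSC and 3.85 and 3.90 in FGF-ESC. Both ICM arrays lay above all others, and FGF-ESC and EpiSC lay under the median of all values. FGF-ESC minus ICM was -1.10 ± 0.19 (adjusted p = 0.00286), -1.07 without FGF-ESC replicate 1, and -0.87, under the fold minimum, without ICM replicate 1. Its partner Itgb7 (probe set 17322163) was also highest in ICM, at 5.57 and 5.76, against 5.10 and 5.29 in FGF-ESC, 4.87 and 5.17 for ESC and 4.68 and 4.57 in EpiSC. EpiSC minus ICM was -1.04 ± 0.15 for Itgb7 (adjusted p = 0.000849), and just under the fold minimum without EpiSC replicate 2 (-0.98) or ICM replicate 2 (-0.94). EpiSC minus ICM was -0.82 for Itgae (adjusted p = 0.0105) and passed without ICM replicate 2 (-1.04). The leukocyte genes Ptprc and Cybb, which encode CD45 and an oxidase subunit of phagocytes, were at 2.88 to 3.22 and 2.96 to 3.08 on all arrays, under the median of all values. Over the whole list of 12 macrophage and leukocyte markers the mean was 4.51 and 4.39 in FGF-ESC, 4.44 and 4.38 for ESC, 4.01 and 4.12 for ICM, and 3.89 and 3.95 for EpiSC, and 3 to 5 of the 12 exceeded that median on both arrays of a group. The highest were Laptm5, at 7.97 and 7.82 for ESC, 6.82 and 7.17 in FGF-ESC and 4.93 and 5.27 in ICM, and Cd68, at 7.09 and 7.02 for ESC. Cd53 was at 6.93 on FGF-ESC replicate 1 and 4.74 on replicate 2. The part of such cells in the Itgae and Itgb7 values was not tested.

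Among integrin beta subunits, Itgb1 had its highest values in the lines grown with FGF2 on MEF. Itgb1 (probe set 17507014), the partner of most matrix-binding alpha subunits, was at 9.50 and 8.53 in FGF-ESC, 8.75 and 8.95 in EpiSC, 8.05 and 7.999 for ESC and 7.89 and 7.64 in ICM. FGF-ESC and EpiSC overlapped (0.16, 95% interval -0.47 to 0.79) and lay above ESC and ICM, which differed by 0.26 (-0.37 to 0.89). The difference from ICM was 1.25 ± 0.27 in FGF-ESC (adjusted p = 0.00838) and 1.08 ± 0.27 in EpiSC (adjusted p = 0.0146). The first was 0.76 without FGF-ESC replicate 1 and missed the p threshold without ICM replicate 2 (adjusted p from 7.57e-05 to 0.0559 over the alternatives). The second missed the p threshold without EpiSC replicate 1, EpiSC replicate 2 or ICM replicate 2 (0.00174 to 0.0891). FGF-ESC minus ESC was 0.99 ± 0.27 (adjusted p = 0.0461), just under the fold minimum, and 1.47, past it, without FGF-ESC replicate 2. It did not pass without FGF-ESC replicate 1. ESC minus EpiSC was -0.82 (adjusted p = 0.075).

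The vitronectin-type subunits Itgav, Itgb3 and Itgb5 differed in which group they set apart. Itgb5 (probe set 17325109), a partner of Itgav, was at 7.15 and 7.21 in ICM, 7.10 and 6.57 in FGF-ESC, 6.25 and 6.46 for ESC and 5.37 and 6.02 in EpiSC. Both EpiSC arrays lay below all others. FGF-ESC minus EpiSC was 1.14 ± 0.24 (adjusted p = 0.0132) and EpiSC minus ICM -1.49 ± 0.24 (adjusted p = 0.00166). The latter passed under every alternative tried. The former was 0.87 without FGF-ESC replicate 1 and 0.81 without EpiSC replicate 1, and missed the p threshold in a fit of these groups alone (adjusted p from 0.00429 to 0.0929 over the alternatives). Neighbours in the order did not pass: FGF-ESC minus ICM was -0.35, FGF-ESC minus ESC 0.48 and ESC minus EpiSC 0.66.

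Itgb3 (probe set 17257235), the other main partner of Itgav and known from platelets and osteoclasts, exceeded the median of all values on the FGF-ESC arrays alone, at 5.44 and 4.54, against 3.98 and 4.03 for ESC, 3.62 and 4.01 in EpiSC, and 4.06 and 4.06 for ICM. It was therefore tested only through FGF-ESC. The difference was 1.17 ± 0.26 against EpiSC (adjusted p = 0.0174), 0.98 ± 0.26 against ESC (adjusted p = 0.0417) and 0.93 ± 0.26 against ICM (adjusted p = 0.0255), and only the first reached the fold minimum. It was 0.72 without FGF-ESC replicate 1 and 0.97 without EpiSC replicate 1, and missed the p threshold in a fit of these groups alone (adjusted p from 0.000379 to 0.131). Without FGF-ESC replicate 2 the differences from ESC and ICM passed (1.43 and 1.38), and with arrays centred on their medians that from ESC did (1.06). Neither passed without FGF-ESC replicate 1. Itgav (probe set 17372515) was at 7.54 and 6.72 in FGF-ESC and between 6.11 and 6.47 on the other 6 arrays. Its differences of 0.71, 0.84 and 0.70 from ESC, EpiSC and ICM did not pass, and each passed without FGF-ESC replicate 2 (1.12, 1.25 and 1.11). Those fits rest on FGF-ESC replicate 1, the array with the higher fibroblast mean. Without replicate 1 instead, the Itgav differences did not pass. The other probe set of Itgav lay between 3.40 and 3.83 on all arrays.

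**Figure D3:**
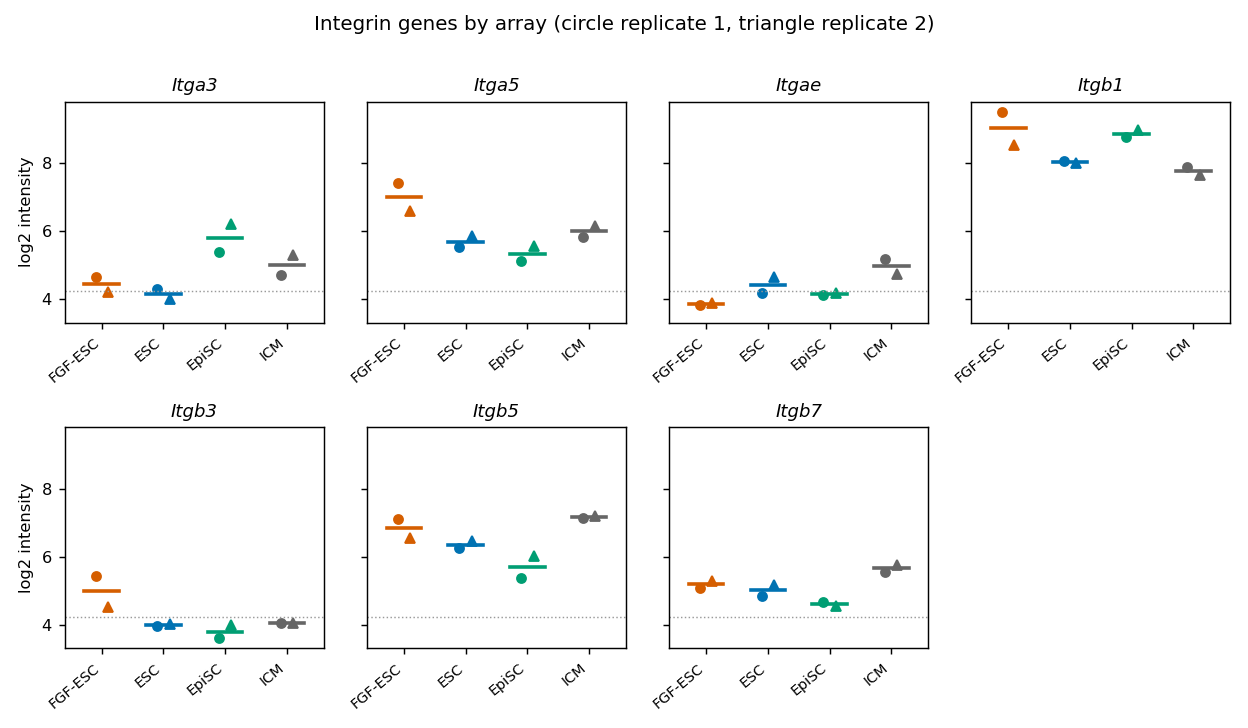
Log2 intensity of the 7 integrin genes that passed in at least 1 comparison, by group, with a circle for replicate 1, a triangle for replicate 2 and a bar for the mean of the 2 arrays; the dotted line is the median of all values, 4.24. FGF-ESC is highest for Itga5, Itgb1 and Itgb3, EpiSC for Itga3, and ICM for Itgae, Itgb5 and Itgb7.

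Itga6 (probe set 17371800), the laminin receptor subunit named above, differed little between groups. It was at 8.18 and 8.05 in ICM, 7.79 and 7.80 for ESC, 7.70 and 7.72 in EpiSC and 7.32 and 7.49 in FGF-ESC. The order held without overlap, but the widest difference, FGF-ESC minus ICM, was -0.71 ± 0.12 (adjusted p = 0.00219), under the fold minimum, and ESC minus EpiSC was 0.08 (95% interval -0.19 to 0.35). Itgb8, a subunit that binds latent TGF-beta with Itgav, was at 4.65 and 4.41 in EpiSC and at 3.69 to 4.03 elsewhere, and was tested only through EpiSC. FGF-ESC minus EpiSC was -0.76 (adjusted p = 0.00771) and ESC minus EpiSC -0.70 (adjusted p = 0.0104). EpiSC minus ICM was 0.57 (limma adjusted p = 0.0136), and all of these were under the fold minimum.

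The remaining 7 tested integrins passed in 0 comparisons, and at an unadjusted limma p below 0.05 in 7 of their 42. No share of all tested genes was computed at that unadjusted p. Itga1 and Itga11, collagen receptor subunits, were at 3.85 to 4.53 and 4.12 to 4.99. Itga7, a laminin receptor subunit of muscle, was at 4.18 to 4.64 and Itga9 at 4.59 to 4.87. Itgb4, the hemidesmosome subunit that pairs with Itga6, was at 4.74 to 5.16, and the leukocyte subunits Itgal and Itgb2 were at 4.15 to 4.59 and 4.50 to 4.79. All lay within 1 of the median of all values, where a small difference in a dim probe set can be missed. Itgb4 and Itga4 each had a further probe set shared with another gene, which was not used. The integrins not tested were Itga2, Itga2b, Itga4, Itga8, Itgad, Itgam, Itgax and Itgb6, which lay under the median of all values on all arrays.

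The 2 FGF-ESC arrays also differed from each other for several of these genes. Within FGF-ESC, 7 of the 25 genes differed by at least 0.5 between the arrays, and all 7 were higher on replicate 1: Lama4 by 1.45, Lamb1 by 1.04, Itgb1 by 0.97, Itgb3 by 0.90, Itgav by 0.82, Itga5 by 0.82 and Itgb5 by 0.54. The share was 28% of the 25 genes and 14.8% of all tested genes. The corresponding number was 0 in ESC, 3 in EpiSC (Itga3, Itgb5 and Lamc3, all higher on replicate 2) and 1 in ICM (Itga3, higher on replicate 2). These were 0%, 12% and 4% of the 25 genes, beside 1.21%, 2.90% and 8.70% of all tested genes. The fibroblast mean was 8.196 on FGF-ESC replicate 1 and 6.93 on replicate 2, and its part in these values was not tested.

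**Figure D4:**
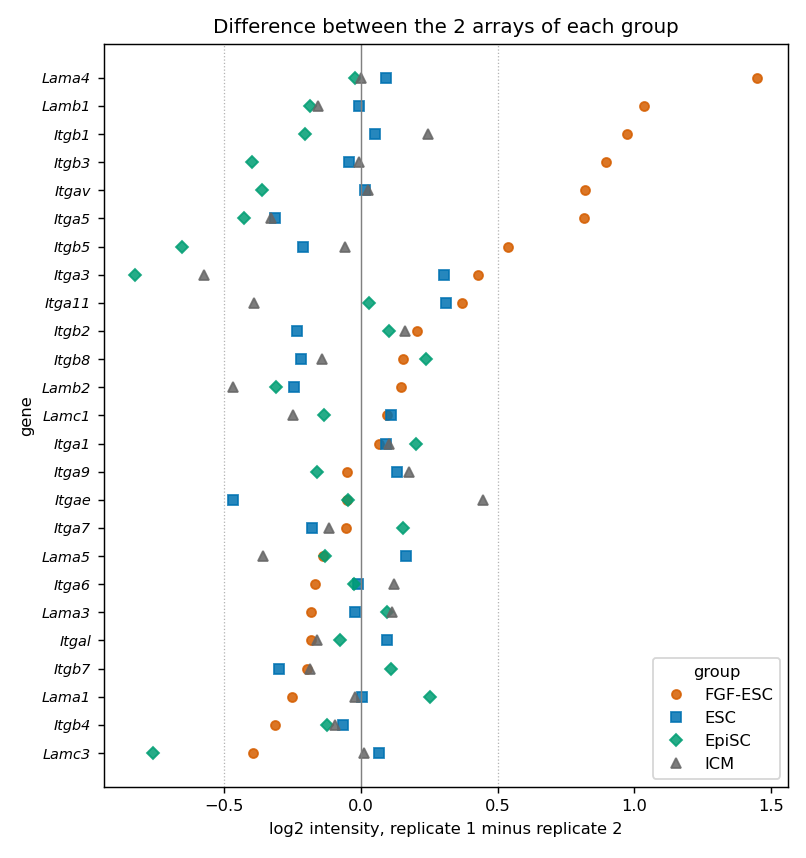
Difference between the arrays of each group (log2 intensity, replicate 1 minus replicate 2; dotted lines at -0.5 and 0.5) for the 25 tested genes, ordered by the FGF-ESC value. The 7 genes at the top lie beyond 0.5 in FGF-ESC, from 0.54 for Itgb5 to 1.45 for Lama4, while ESC holds 0 genes beyond either line.

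Other genes of the pathway were followed with a pair of lists, one of cytoplasmic partners of integrins (24 tested of 30 listed) and one of other matrix proteins and matrix receptors (23 tested of 29 listed). Between FGF-ESC and ESC, 6 of 24 adhesion partners were higher in FGF-ESC and 0 lower (2 lower at an unadjusted limma p below 0.05), and 7 of 23 matrix genes were higher and 1 lower, beside 5.27% and 0.934% of all tested genes. The caveolar coat protein gene Cav1 was higher by 3.27 ± 0.29 (adjusted p = 0.000418), Parva, an actin-binding partner of integrin-linked kinase, by 2.81 ± 0.38 and the kinase gene Ptk2b by 1.03 ± 0.21. The matrix genes Postn, Tnc and Thbs1, whose products bind integrins of the Itgav group among others, were higher by 5.72 ± 0.36, 5.58 ± 0.51 and 4.37 ± 0.44. Bcam, a surface receptor for laminins with Lama5, was the gene that was lower (-1.61 ± 0.20, adjusted p = 0.00193). The median was 0.41 over the adhesion partners and 0.33 over the matrix genes, against -0.06 over all tested genes. The count over both lists was 13 higher with all arrays and 6 to 18 with 1 array left out. Without FGF-ESC replicate 1, 2 adhesion partners and 5 matrix genes were higher and Bcam (-1.67) lower. Cav1 (2.78), Parva (2.14), Postn (5.19), Tnc (4.66) and Thbs1 (3.64) passed there and Ptk2b (0.70) did not. The fibroblast mean was 8.196 and 6.93 in FGF-ESC against 4.26 and 4.3001 for ESC, and its part was not tested.

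Against EpiSC, 5 of 24 adhesion partners and 10 of 23 matrix genes were higher in FGF-ESC and 0 lower in either list (1 and 0 lower at an unadjusted limma p below 0.05). Nid1, which links laminin to collagen IV, was higher by 3.41 ± 0.27 (adjusted p = 0.000143) and fibronectin, Fn1, the ligand of the receptor made with Itga5, by 2.17 ± 0.20. Postn was higher by 4.69 ± 0.36. Among adhesion partners Cav1 was higher by 2.87 ± 0.29, Tns3, a tensin, by 1.13 ± 0.15 and Parvb by 1.29 ± 0.20. The medians were 0.46 and 0.83, against -0.04 over all tested genes, of which 5.26% were higher and 2.02% lower. Without FGF-ESC replicate 1, 4 adhesion partners and 7 matrix genes were higher and 1 adhesion partner, Zyx, was lower. Cav1 (2.38), Tns3 (1.06), Parvb (1.08), Nid1 (2.93), Fn1 (1.91) and Postn (4.16) passed there. Against ICM, 9 adhesion partners were higher and 1 lower, and 12 matrix genes were higher and 0 lower (also 0 at an unadjusted limma p below 0.05), with medians of 0.54 and 1.05, where 9.57% of all tested genes were higher and 5.22% lower. Flna, an actin crosslinker that binds integrin tails, was higher by 2.49 ± 0.22, Cav1 by 3.20 ± 0.29 and Bcar1, an adhesion scaffold, by 1.67 ± 0.18, while the tensin gene Tns1 was lower (-1.51 ± 0.26). Postn was higher by 5.62 ± 0.36, Nid2 by 2.53 ± 0.20 and Sparc, a collagen-binding matrix protein, by 2.00 ± 0.17. Without FGF-ESC replicate 1, 7 adhesion partners and 9 matrix genes were higher and Tns1 (-1.92) lower, and Flna (2.10), Cav1 (2.71), Bcar1 (1.57), Postn (5.09), Nid2 (2.74) and Sparc (1.99) passed. The fibroblast mean, 8.196 and 6.93 in FGF-ESC, was 4.89 and 5.12 in EpiSC and 4.40 and 4.61 for ICM, and its part in both comparisons was not tested.

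The same lists were counted between ESC, EpiSC and ICM. Between ESC and EpiSC, 4 of 23 matrix genes were higher in ESC and 0 lower (3 at an unadjusted limma p below 0.05): Bcam by 2.31 ± 0.20 (adjusted p = 0.000138), Fn1 by 2.00 ± 0.20, Nid1 by 2.60 ± 0.27 and Egfl6 by 1.02 ± 0.13. Of 24 adhesion partners 3 were higher in ESC (Tns3 by 1.62 ± 0.15, Kank2 by 1.40 ± 0.16 and Parvb by 1.40 ± 0.20) and 2 lower (Zyx and Bcar1). The medians were 0.19 over the matrix genes and -0.11 over the adhesion partners, and 3.5% of all tested genes were higher and 3.86% lower. Between ESC and ICM, 7 matrix genes were higher in ESC and 1 lower, with Bcam at 3.52 ± 0.20, Nid2 at 3.06 ± 0.20 and Sparc at 1.67 ± 0.17, and the lower gene, Col4a1, a chain of collagen IV, at -1.51 ± 0.30 (adjusted p = 0.0055). Of the adhesion partners Kank2 (1.78 ± 0.16), Flna (2.25 ± 0.22) and Bcar1 were higher in ESC, and Tns1 (-1.96 ± 0.26) and Zyx were lower. The medians were 0.38 over the matrix genes and 0.17 over the adhesion partners, beside 5.82% of all tested genes higher and 5.57% lower.

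Between EpiSC and ICM, 6 matrix genes were higher in EpiSC and 3 lower. Nid2 was higher by 2.17 ± 0.20 and Agrn, a laminin-binding proteoglycan, by 1.12 ± 0.14, while Nid1 was lower (-2.75 ± 0.27, adjusted p = 0.000104). The other lower genes were Fn1 and Col4a1, so that Nid1 and Nid2, the genes of both nidogens, differed in opposite directions. Of the adhesion partners 5 were higher and 3 lower. The higher genes were Bcar1 (2.29 ± 0.18), Flna (2.35 ± 0.22) and Src (1.004 ± 0.112), which had the smallest adjusted p, with Parva (1.82 ± 0.38) and Rsu1, and the lower genes were Tns1, Tns3 and Parvb. The medians were 0.46 over the matrix genes and 0.28 over the adhesion partners, and 8.48% of all tested genes were higher and 6.8% lower. Dag1, which encodes dystroglycan, the main laminin receptor that is no integrin, was at 6.55 to 6.83 on all arrays and passed in 0 comparisons (0 of 6 at an unadjusted limma p below 0.05).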

How the data were processed

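The authors deposited log2 intensities for each probe set of every array. The submitters' processing notes name Affymetrix Expression Console 1.3.1. For summarisation, background correction and genome build, the step was not given in the sources used here. A log2 scale was inferred from the values, which ran from 1.63 to 12.22. Array medians lay between 4.16 (FGF-ESC replicate 1) and 4.28 (ESC replicate 2), and no further normalization was applied in the main fit. Of 41345 probe sets, 23521 had 1 gene in the platform annotation, 1814 several and 16010 none.

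A model of 4 group means was fitted to all 8 arrays with limma 3.58.1 in R 4.3.3 (lmFit, contrasts.fit, eBayes). Each SE combines 4 residual degrees of freedom shared by the groups with limma's prior variance, estimated over all tested genes. It can be too small for FGF-ESC, whose arrays differed most. Every adjusted p is limma's, Benjamini-Hochberg adjusted over 13597 genes, and intervals are 95% intervals of the same fit. The code was tested on simulated data. Alternatives covered the filter, the probe set, the normalization, the groups fitted, the variance model, the fold minimum, a replicate block and each array of the compared groups left out. The single values of pathway-list genes without FGF-ESC replicate 1 were added after seeing the data.

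The 35 genes and all lists were chosen with earlier results of these data known. Values by array are given for genes called at least once, and for the pathway lists up to 3 called genes per list and comparison with the smallest adjusted p. Genes named to complete a count of 5 or fewer, Dag1, and the uncalled genes given with single values were chosen after their values were seen. Pdgfra is on both the fibroblast and the primitive endoderm list. The number of arrays limits the precision.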

Additional observations from a re-analysis of the deposited data

How the results depend on the processing

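Of the 26 differences called for single genes, 12 passed in every alternative, and over 362 alternative values 331 kept the call, 31 did not pass and 0 changed direction. Some of these alternatives could not test a call. Each called gene had a single probe set of its own, so the choice of probe set left its values unchanged. Dropping the fold minimum could not remove a call. Without the fold minimum, 6 integrin and laminin genes were higher and 3 lower in FGF-ESC than in ESC (3 and 1 with it), 9 and 3 against EpiSC (4 and 1), and 6 and 4 against ICM (3 and 2). Also without it, 4 were lower in ESC than in EpiSC (2 with it) and 6 lower than in ICM (2), and 3 were higher and 9 lower in EpiSC than in ICM (1 and 2). In fits of the 2 groups alone, 1 was higher in FGF-ESC than in ESC, and 1 was higher and 0 lower than in EpiSC. The stricter filter on low values left 1 lower in FGF-ESC than in ICM, since Itgae was then not tested, and quantile normalization gave 4 lower in EpiSC than in ICM. For none of the alternatives in this section was the share of all tested genes computed, so their counts describe the lists alone.

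With 1 array left out, FGF-ESC had 1 to 6 of these genes higher than ESC, 1 to 6 higher and 0 to 1 lower than EpiSC, and 2 to 6 higher and 1 to 2 lower than ICM. ESC had 1 to 2 lower than EpiSC and 1 to 2 lower than ICM, and EpiSC had 0 to 1 higher and 2 to 4 lower than ICM. Where 1 array is left in a group, it is assumed to vary like the other groups.

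For adhesion partners and matrix genes together, counts without the fold minimum of genes lower in FGF-ESC were 2 against ESC (1 with it), 1 against EpiSC (0) and 2 against ICM (1), and 23 were higher than in EpiSC (15). They were 11 higher in ESC than in EpiSC (7) and 5 lower in ESC than in ICM (3). Fits of the 2 groups alone gave 6 higher in FGF-ESC than in ESC (13 otherwise) and 6 lower in ESC than in EpiSC (2). With 1 array left out, FGF-ESC had 6 to 18 higher than ESC and 0 to 1 lower than EpiSC, ESC 1 to 2 lower than EpiSC, and EpiSC 6 to 11 higher than ICM. The cause of these shifts was not tested.

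Same-numbered arrays of different groups did not deviate together (correlations of -0.09 to 0.04 over the tested genes), so the replicate numbers were not taken as pairs. With a replicate block, FGF-ESC had 3 integrin and laminin genes higher than ESC, 4 higher than in EpiSC and 3 higher than in ICM, and the block moved no count by over 1.5 times.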

Other observations

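Levels of 3 genes of basement membrane partners of laminin, chosen after their values were seen, are given here by array. On replicates 1 and 2, Nid1 was at 9.14 and 8.19 in FGF-ESC, 7.92 and 7.79 for ESC, 7.94 and 8.09 in ICM and 5.15 and 5.37 in EpiSC, so that EpiSC alone was low. Col4a1 was at 7.07 and 6.02 in FGF-ESC and 6.73 and 6.72 in ICM, against 5.19 and 5.24 for ESC and 5.22 and 4.83 in EpiSC, so that it was low in EpiSC, where Lamb1 was not. Bcam was at 8.68 and 8.56 for ESC, 7.07 and 6.95 in FGF-ESC, 6.01 and 6.61 in EpiSC, and 5.22 and 4.97 for ICM, while its ligand chain gene Lama5 was highest in ICM. Likeness between genes was not tested.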
